A study of Mus musculus with 28 samples.

Results

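Ch25h, Gpr183 and cholesterol genes were followed in retinal microglia through endotoxin-induced uveitis (EIU), an acute eye inflammation set off by lipopolysaccharide (LPS), a bacterial cell wall component. The 8 genes, Ch25h, Gpr183, Abca1, Abcg1, Hmgcs1, Sqle, Srebf2 and Nr1h3, are 8 of 40021 genes listed, and they were chosen by name with their RPKM values in these groups known (RPKM: reads scaled to transcript length and to library size). Their levels across the groups are therefore given as a description, without a test. Of the 8 genes, 7 reached 1 RPKM in 5 or more of the 28 retinas and entered the fit of 13164 genes, while Nr1h3 did not.

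Each sample held microglia sorted from 1 retina of a male Cx3cr1CreER:R26-tdTomato heterozygote on the C57BL/6 background, in which a tamoxifen-activated Cre driven by the fractalkine receptor gene Cx3cr1 switches on the red protein tdTomato. All mice, naïve ones included, had tamoxifen drops on the eye several weeks before the experiment, and live cells bright for tdTomato were sorted. There were 10 naïve retinas, 6 taken 4 h, 5 taken 18 h and 7 taken 2 weeks after an injection of LPS into the vitreous, from left and right eyes and from 2 experiments. Experiment 2 supplied 4 of the naïve retinas, 3 of those at 4 h, 1 of those at 18 h and 3 of the 2-week retinas, and experiment 1 the others. The naïve eyes were not injected, so the effects of LPS and of the injection cannot be told apart, and the labels do not say which retinas came from the same mouse, so that p-values measure the spread between these retinas only.

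CH25H adds a hydroxyl group to cholesterol to make 25-hydroxycholesterol, an oxysterol that macrophages release after toll-like receptor or interferon signals. A further enzyme, CYP7B1, turns it into the ligand of GPR183 (EBI2), a G-protein-coupled receptor that guides migrating immune cells. Oxysterols also bind the nuclear receptors LXR alpha (Nr1h3) and LXR beta (Nr1h2), which switch on the cholesterol exporters ABCA1 and ABCG1, and they hold back SREBP2 (Srebf2), the transcription factor that drives cholesterol synthesis enzymes such as HMGCS1 and SQLE.

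Promoters are shown for the genes at the start and the end of this scheme, the oxysterol enzyme Ch25h, the receptor Gpr183 and the synthesis enzyme Hmgcs1, as the 250 bases before the RefSeq start site, 5′ to 3′ on the strand of the gene (GRCm38.p6). RefSeq entries were matched for 6 of the 8 genes, not for Sqle or Abcg1. Capitals mark matches, on either strand, to 7 short motifs: the cAMP response element (CRE) TGACGTCA, the AP-1 site TGANTCA, the kappa B site GGANTTTCC, the interferon response core GAAANNGAA, the sterol response core TCACNCCAC, the CCAAT box and the TATA box TATAAA. The motifs were chosen after the sequences were seen.
Ch25h, chr19:34475149-34475398, minus strand: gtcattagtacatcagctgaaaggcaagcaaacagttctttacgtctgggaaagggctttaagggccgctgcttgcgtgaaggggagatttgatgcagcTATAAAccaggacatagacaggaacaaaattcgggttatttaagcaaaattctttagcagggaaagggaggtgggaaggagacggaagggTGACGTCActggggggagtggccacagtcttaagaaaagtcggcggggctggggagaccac
Gpr183, chr14:121965194-121965443, minus strand: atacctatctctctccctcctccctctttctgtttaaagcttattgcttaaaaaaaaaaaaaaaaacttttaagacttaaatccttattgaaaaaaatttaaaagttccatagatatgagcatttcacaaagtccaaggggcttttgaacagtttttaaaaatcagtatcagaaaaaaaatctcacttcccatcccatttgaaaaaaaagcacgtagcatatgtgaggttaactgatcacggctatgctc
Hmgcs1, chr13:119690101-119690350, plus strand: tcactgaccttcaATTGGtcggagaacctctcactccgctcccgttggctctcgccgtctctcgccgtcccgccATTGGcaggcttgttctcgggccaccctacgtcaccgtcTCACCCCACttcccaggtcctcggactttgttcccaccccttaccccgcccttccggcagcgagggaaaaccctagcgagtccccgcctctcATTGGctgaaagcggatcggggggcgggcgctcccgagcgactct

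The Ch25h window held a CRE that begins 61 bases before the start site and a TATA box that begins 151 bases before it. Of 27025 mouse promoter windows of the same length, 1.62% held the CRE and 13% the TATA box. The Hmgcs1 window held the sterol response core, 137 bases before the start and present in 1.04% of windows, and the CCAAT box on the opposite strand at 3 places, present in 34.5%. The Gpr183 window held none of the 7 motifs. The AP-1 site, the kappa B site and the interferon core, found in 6.87%, 1.05% and 7.16% of windows, were in no window of the 6 genes. The matches did not overlap, and a match is a description of these letters only.

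Ch25h was listed at or near 0 in naïve microglia, and was high at 4 h and 18 h, and low again after 2 weeks. Among naïve retinas, Ch25h was listed at 0 RPKM in 5 of the 6 of experiment 1 and at 4.54 in the other, and at 4.17, 1.11, 2.53 and 5.44 RPKM in experiment 2. At 4 h it was 308, 656 and 460 RPKM in experiment 1 and 89.3, 205 and 69.7 RPKM in experiment 2. All 6 retinas at 4 h lay above every naïve retina, and the retinas of experiment 1 lay above those of experiment 2. At 18 h Ch25h was 356, 343, 956 and 134 RPKM in experiment 1 and 395 RPKM in the 1 retina of experiment 2, again with no overlap with naïve retinas. At 2 weeks it was 0, 32.3, 0.0877 and 16.2 RPKM in experiment 1 and 4.49, 3.41 and 7.30 RPKM in experiment 2, and 3 of these 7 retinas lay above every naïve retina.

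**Figure D1:**
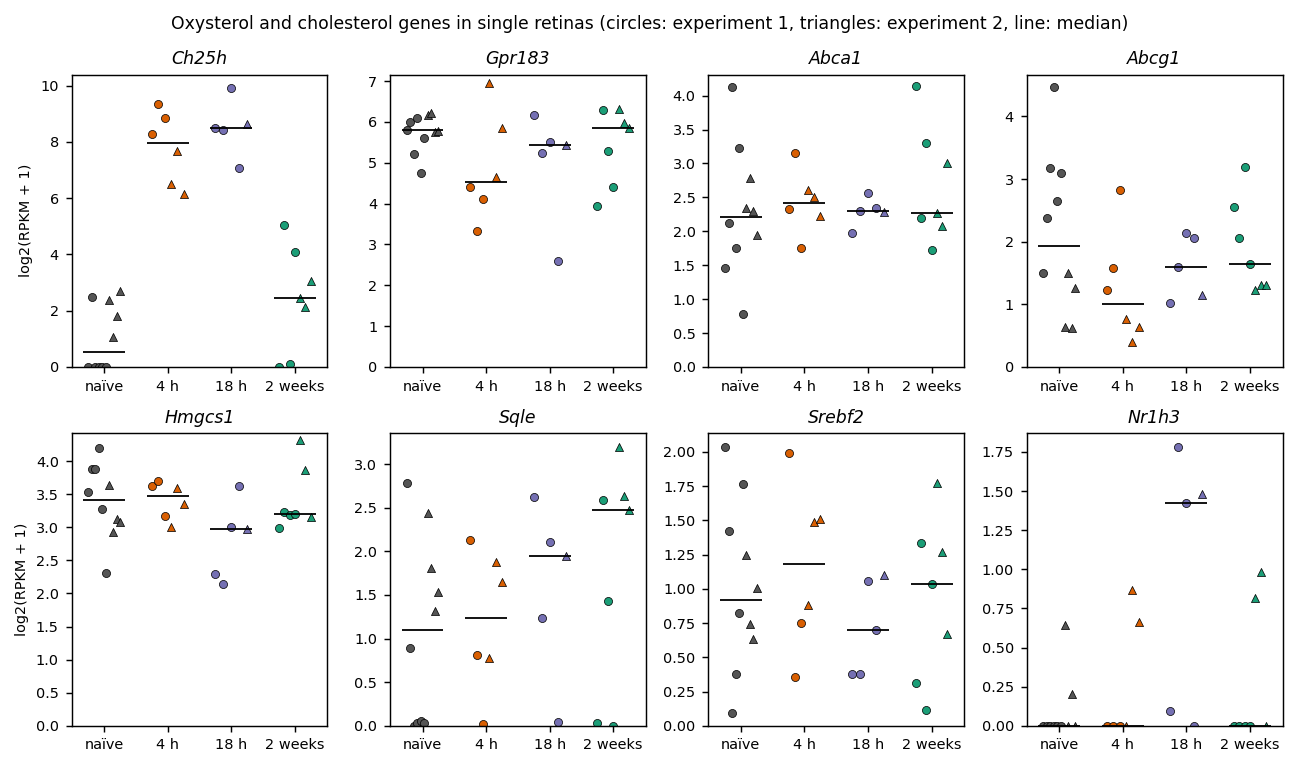
Level of each of the 8 genes as log2(RPKM + 1) in every retina, by group, with circles for experiment 1, triangles for experiment 2 and a line at the group median. Ch25h is the only panel in which the 4 h and 18 h retinas do not overlap with the 10 naïve retinas, and Nr1h3 is listed at 0 in 8 of 10 naïve retinas.

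In order of mean level, Ch25h was 437 ± 307 RPKM (SD, n = 5) at 18 h and 298 ± 228 RPKM (SD, n = 6) at 4 h, which overlapped each other, followed by the 2-week and naïve retinas, which also overlapped. On the log2(RPKM + 1) scale, Ch25h was higher than in naïve retinas by 6.76 (SE 0.66) at 4 h and by 7.46 (SE 0.71) at 18 h, the 12th and the 5th largest increase among the 13164 genes. At 2 weeks the difference was 1.38 (SE 0.63, 95% interval 0.08 to 2.67), and between 18 h and 4 h it was 0.70 (SE 0.78, 95% interval -0.89 to 2.29). The size of the 4 h difference varied with the experiment, from 8.42 in experiment 1 to 4.79 in experiment 2, and at 18 h it was 8.06 and 6.64. It also varied with the pseudocount, since the naïve values are low: 8.61 at 4 h and 9.31 at 18 h with a pseudocount of 0.1, and 4.34 and 5.01 with one of 10. Without the 4 retinas with the fewest detected genes (naïve replicates 3 and 4, 18 h replicate 4 and 2-week replicate 1), the differences at 4 h and 18 h were 6.50 and 7.56.

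Ch25h (ENSMUSG00000050370.5) is a single-exon gene at chr19:34473778-34475164 on the minus strand (GRCm38, GENCODE M21), with 1387 exonic bases. At that length 1 RPKM corresponds to about 10.4 alignments in the shallowest retina and 27.3 in the deepest. The lowest naïve value above 0, 1.11 RPKM, thus rests on few reads, and the higher ones, up to 5.44 RPKM, on more. Whether a listed 0 is a failed estimate was not tested. Tbp, a general transcription factor gene that every cell uses, was at 0 in no retina. Its lowest value was 0.0318 RPKM, against a median of 3.98 RPKM. The long noncoding RNA gene Gm26902 on the opposite strand shares 159 exon bases with Ch25h, and the library kit does not mark strand, so reads from the shared bases cannot be told apart. Gm26902 was listed at 0 in 8 of 10 naïve retinas and at up to 0.0284 RPKM in the others, and reached 2.15 RPKM at 4 h and 2.77 RPKM at 18 h.

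Of the 7 genes in the fit, 1 (Ch25h) passed the thresholds (adjusted p of at most 0.05 and at least 2-fold) in the higher direction at 4 h, and none did so in the lower direction. Over all genes the shares were 3.68% higher and 4.39% lower. At 18 h it was again Ch25h alone, in the higher direction, with 2.84% of all genes higher and 1.85% lower. None passed at 2 weeks, where 1 of 13164 genes did (0.0076%), or between 18 h and 4 h (2.92% higher and 2.51% lower). Nothing is read from these counts, because the 8 genes were chosen with these values known.

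**Figure D2:**
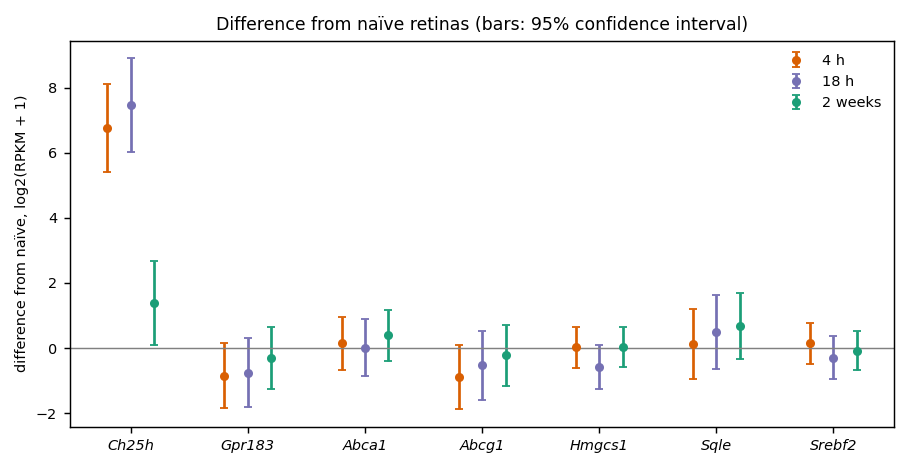
Difference from naïve retinas in log2(RPKM + 1) at the 3 times after LPS for the 7 genes in the fit, with bars for the 95% confidence interval of each difference. Ch25h lies at 6.76 and 7.46 at 4 h and 18 h, and the intervals of the other 6 genes include 0 at all 3 times. The genes were chosen with these values known, so the intervals are a description and not a test.

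Gpr183, the receptor, was well expressed in naïve microglia at 54.8 ± 15.3 RPKM (SD, n = 10), with a lowest value of 25.8, a median of 54.3 and a highest value of 73.8. At 4 h it was 20.2, 9.07 and 16.3 RPKM in experiment 1 and 122, 24.3 and 57.1 RPKM in experiment 2. Thus 4 of 6 retinas lay below every naïve retina and 1 lay above all of them. At 18 h Gpr183 was 70.5, 36.6, 44.3, 5.00 and 42.1 RPKM, and the 1 retina below the naïve range, at 5.00, was replicate 4, which also had few detected genes. At 2 weeks it ranged from 14.3 to 78.7 RPKM with a median of 56.8, so that all 4 groups overlapped.

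Relative to naïve retinas, Gpr183 differed by -0.86 (SE 0.49) at 4 h, by -0.76 (SE 0.52) at 18 h and by -0.31 (SE 0.47) at 2 weeks on the log2(RPKM + 1) scale. Within experiment 1 the 4 h difference was -1.63 and within experiment 2 it was -0.16. Without the 4 retinas with few detected genes the 18 h difference was -0.18. Gpr183 (chr14:121952551-121965195, minus strand) lies inside Ubac2, a gene on the plus strand, but shares no exon bases with it. Ubac2 averaged 10.4 ± 9.27 RPKM (SD, n = 10) in naïve retinas, 7.67 ± 4.63 (SD, n = 6) at 4 h, 9.03 ± 4.18 (SD, n = 5) at 18 h and 11.2 ± 8.66 (SD, n = 7) at 2 weeks.

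Nr1h3, which encodes LXR alpha, was at or near 0 in naïve microglia. It was listed at 0 in 8 of 10 naïve retinas and at 0.560 and 0.151 RPKM in the other two. At 4 h it was listed at 0 in 4 of 6 retinas, with 0.824 and 0.580 RPKM in the others, both of experiment 2. At 18 h it was 0.0688, 2.43, 1.69, 0 and 1.79 RPKM, and these were the only 3 values of at least 1 among the 28 retinas. At 2 weeks 5 of 7 retinas were at 0 and the others, of experiment 2, had 0.760 and 0.977 RPKM. The 3 highest values at 18 h lay above every naïve retina. With 18.9 to 49.5 alignments per RPKM for its 2515 exonic bases, the values below 1 RPKM rest on few reads, and those 3 on more.

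Of the exporter genes, Abca1 was 4.99 ± 4.59 RPKM (SD, n = 10) in naïve retinas, 4.62 ± 1.84 (SD, n = 6) at 4 h, 3.95 ± 0.713 (SD, n = 5) at 18 h and 6.50 ± 5.05 (SD, n = 7) at 2 weeks. The 5 retinas at 18 h, at 2.91, 3.94, 4.92, 4.08 and 3.89 RPKM, all lay inside the naïve range of 0.724 to 16.5. The differences from naïve retinas were 0.14 (SE 0.40), 0.01 (SE 0.43) and 0.39 (SE 0.38) on the log2(RPKM + 1) scale, with 95% intervals from -0.68 to 0.96, from -0.86 to 0.88 and from -0.40 to 1.17.

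Abcg1 was 5.22 ± 6.21 RPKM (SD, n = 10) in naïve retinas, but its level depended on the experiment, with naïve values from 1.84 to 21.1 RPKM in experiment 1 and from 0.536 to 1.82 in experiment 2. At 4 h Abcg1 was 1.35, 1.98 and 6.09 RPKM in experiment 1 and 0.699, 0.319 and 0.552 RPKM in experiment 2. At 18 h it was 1.02, 2.03, 3.41, 3.18 and 1.22 RPKM, all inside the naïve range. The differences from naïve retinas were -0.89 (SE 0.48) at 4 h, -0.53 (SE 0.51) at 18 h and -0.23 (SE 0.46) at 2 weeks. Within experiments the 18 h difference was -1.17 in experiment 1 and 0.15, against 1 retina, in experiment 2.

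Srebf2, the gene of SREBP2, was low in all 4 groups. It was 1.19 ± 0.963 RPKM (SD, n = 10) in naïve retinas, 1.40 ± 0.993 (SD, n = 6) at 4 h, 0.690 ± 0.409 (SD, n = 5) at 18 h and 1.04 ± 0.816 (SD, n = 7) at 2 weeks. At 18 h its values of 0.301, 0.296, 1.08, 0.625 and 1.15 RPKM lay inside the naïve range of 0.0654 to 3.10. The differences from naïve retinas on the log2(RPKM + 1) scale were 0.15 (SE 0.31), -0.29 (SE 0.33) and -0.09 (SE 0.29).

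Hmgcs1 and Sqle encode enzymes of the early and the middle part of cholesterol synthesis. Hmgcs1 was 10.1 ± 4.02 RPKM (SD, n = 10) in naïve retinas and 9.76 ± 2.00 (SD, n = 6) at 4 h. At 18 h it was 3.93, 3.44, 7.04, 11.3 and 6.85 RPKM, and 2 of these 5 retinas lay below every naïve retina. At 2 weeks it was 10.3 ± 4.37 RPKM (SD, n = 7). The differences from naïve retinas were 0.02 (SE 0.31), -0.57 (SE 0.33) and 0.04 (SE 0.30) on the log2(RPKM + 1) scale. The antisense gene Gm48342 shares 557 exon bases with Hmgcs1 but had at most 0.388 RPKM in any retina.

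Each group held at least 1 retina of experiment 1 with Sqle at or below 0.0349 RPKM, while no retina of experiment 2 was below 0.709. Its naïve values were 5.88, 0.851, 0, 0.0202, 0.0349 and 0.0191 RPKM in experiment 1 and lay between 1.49 and 4.43 in experiment 2. At 18 h Sqle was 5.15, 1.36, 3.30, 0.0318 and 2.86 RPKM, and at 2 weeks it ranged from 0 to 8.15 RPKM with a median of 4.54. The low value at 18 h and 1 of the 2 lowest at 2 weeks came from retinas with few detected genes. The differences from naïve retinas were 0.12 (SE 0.52) at 4 h, 0.50 (SE 0.56) at 18 h and 0.68 (SE 0.50) at 2 weeks.

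To place the 8 genes in their pathway, 66 further cholesterol genes in 5 lists were tested in the same limma fit, and 58 of them passed the expression filter. These lists too were chosen with earlier results of these data known. Their counts and adjusted p-values, here and below, therefore describe these retinas and are not independent support. At 4 h, 3 of 58 passed the thresholds (1 rose and 2 fell), where 8.08% of all genes passed in either direction, and at 18 h 6 of 58 did (2 rose and 4 fell), where 4.69% of all genes passed. The balance at 18 h depended on the fit: 5 rose and 1 fell on untransformed RPKM, 4 rose and 2 fell with a pseudocount of 10, 5 rose and 4 fell with experiment as a covariate, and 5 rose and 3 fell with a replicate block. At 2 weeks none passed, with 5 at an unadjusted p under 0.05, where 0.0076% of all genes passed. Between 18 h and 4 h 3 were higher at 18 h and 1 was lower, beside 2.92% and 2.51% of all genes. The median difference of the 58 genes was -0.03 at 4 h and 0.10 at 18 h, beside -0.11 and -0.08 for all genes tested, and 0.13 beside 0.07 at 2 weeks. After rescaling the retinas to equal summed RPKM, which moved the median of all genes to -0.28 at 4 h and -0.26 at 18 h, 1 rose and 4 fell at both times when the filter was applied to the rescaled values. With the 13164 genes of the original filter, 1 rose and 5 fell at 4 h, and 1 rose and 4 fell at 18 h. In the test of whether the 4 h response differed between the experiments (limma interaction), 0 of 58 passed, with 2 at an unadjusted p under 0.05, where 0.0988% of all genes did.

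Of 4 other oxysterol enzymes in the fit, none passed at 4 h, where 8.08% of all genes did. At 18 h 1 fell, where 1.85% of all genes did. Cyp27a1, which makes 27-hydroxycholesterol, fell at 18 h by 2.36 on the log2(RPKM + 1) scale (SE 0.63, limma adjusted p = 0.022). It was 2.51, 0.449, 1.57, 0.162 and 0.855 RPKM at 18 h, against 1.36 to 27.5 RPKM in naïve retinas. The difference was -2.15 within experiment 1 and -2.73 within experiment 2, which had 1 retina at 18 h. The call was lost without 18 h replicate 2, 4 or 5 and in 6 of 13 alternative settings. Hsd3b7, which acts on oxysterols further along the bile acid route, differed by -1.88 at 4 h (SE 0.68, limma adjusted p = 0.088) and by -0.29 at 18 h (SE 0.72, limma adjusted p = 0.89). With RPKM rescaled to equal sums and the genes of the original filter, Hsd3b7 passed at 4 h (-2.07, limma adjusted p = 0.0498). Cyp7b1, the enzyme between Ch25h and the Gpr183 ligand, averaged 0.303 RPKM over the 28 retinas and was the 1 of 5 genes of this list that did not pass the filter.

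Among 14 LXR partners and targets that passed the filter, none rose, 1 fell at 4 h (2 on rescaled values) and 3 fell at 18 h, beside 4.39% and 1.85% of all genes that fell. Mertk, a receptor for apoptotic cells, fell by 2.31 at 4 h (SE 0.31, limma adjusted p = 2.6e-06) and by 1.81 at 18 h (SE 0.33, limma adjusted p = 0.00059). Its naïve range of 23.1 to 98.2 RPKM did not overlap with the 3.10 to 14.2 RPKM at 4 h or the 9.08 to 15.9 RPKM at 18 h. At 4 h the difference was -3.11 in experiment 1 and -1.35 in experiment 2. At 18 h it was -2.20 in experiment 1 and -1.02 in experiment 2, which had 1 retina at 18 h. Mylip, which encodes the ligase that degrades the LDL receptor, fell at 18 h by 1.65 (SE 0.40, limma adjusted p = 0.010). The Mylip difference was -2.20 within experiment 1 and -0.45 within experiment 2, from that same 1 retina at 18 h. Arl4c, a small GTPase, fell at 18 h by 1.52 (SE 0.35, limma adjusted p = 0.0073), with 1.12, 0.581, 1.09, 0 and 0.421 RPKM at 18 h, all below the lowest naïve value of 1.95, and a call that was lost in 4 of 12 alternative settings.

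Apoe, the main carrier of cholesterol between cells in the nervous system, was by far the most abundant gene of these lists. Its median was 1658 RPKM in naïve retinas (range 196 to 4820), 1155 RPKM at 4 h, 955 RPKM at 18 h and 1628 RPKM at 2 weeks, and the groups overlapped. Its differences from naïve retinas were -0.10 (SE 0.60), -0.92 (SE 0.63) and 0.63 (SE 0.57), with limma adjusted p of 0.95, 0.49 and 1. Nr1h2, the gene of LXR beta, had a median of 2.77 RPKM in naïve retinas (range 0.0335 to 29.6) and 4.56 RPKM at 18 h (range 0.0525 to 7.45), a difference of means on the log2(RPKM + 1) scale of 0.11 (SE 0.74, limma adjusted p = 0.96).

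**Figure D3:**
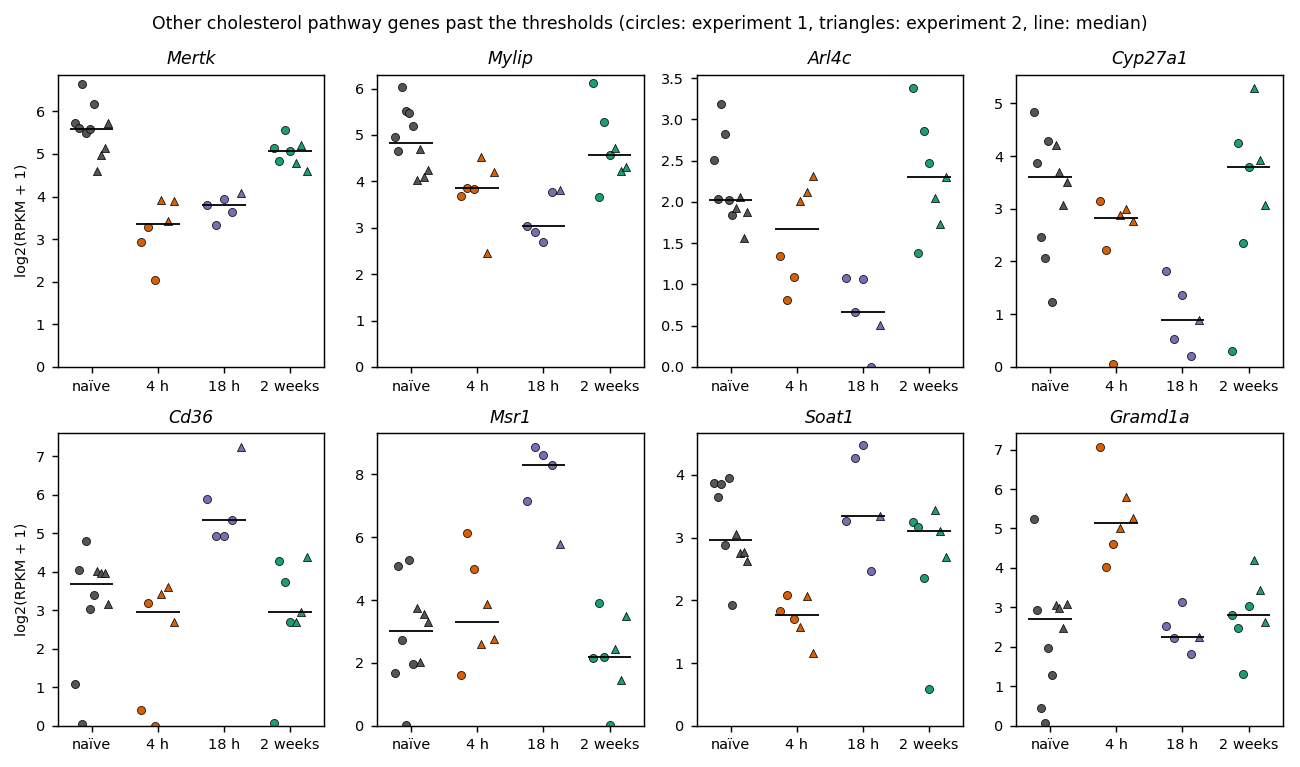
Level of the 8 further cholesterol genes that passed the thresholds in at least 1 comparison, as log2(RPKM + 1) in every retina, with circles for experiment 1, triangles for experiment 2 and a line at the group median. Mertk does not overlap between naïve retinas and those at 4 h or 18 h, and Msr1 at 18 h lies above all 10 naïve retinas.

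Of 15 uptake, transport and storage genes in the fit, 1 rose and 1 fell at 4 h, beside 3.68% and 4.39% of all genes. At 18 h 2 rose and none fell, beside 2.84% and 1.85% of all genes. Msr1, a scavenger receptor for modified lipoproteins, was higher by 4.80 at 18 h (SE 0.76, limma adjusted p = 0.00010). It was 140, 465, 392, 314 and 53.6 RPKM at 18 h, all above the highest naïve value of 38.2. The difference was 5.44 in experiment 1 and 2.62 in experiment 2, which had 1 retina at 18 h. Cd36, which takes up fatty acids and oxidised lipoproteins, rose at 18 h by 2.51 (SE 0.73, limma adjusted p = 0.038), with 58.4, 29.5, 29.5, 39.7 and 150 RPKM against 0.0327 to 27.0 in naïve retinas. This call was lost without naïve replicate 1 or 3 or any 1 of the 18 h retinas, and in 4 of 13 alternative settings. Rescaling to equal sums (limma adjusted p = 0.066) and a pseudocount of 0.1 (limma adjusted p = 0.19) were among them. The Cd36 difference was 2.54 in experiment 1 and 3.45 in experiment 2, which had 1 retina at 18 h.

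Soat1, which esterifies cholesterol for storage, fell at 4 h by 1.40 (SE 0.40, limma adjusted p = 0.021), with 1.24 to 3.23 RPKM against 2.79 to 14.4 in naïve retinas. The call was lost without 4 h replicate 6 and in 3 of 13 alternative settings, and the difference was -1.48 in experiment 1 and -1.20 in experiment 2. Soat1 was higher at 18 h than at 4 h by 1.83 (SE 0.47, limma adjusted p = 0.015). That call was lost without 18 h replicate 2 or 3 and in 2 of 13 alternative settings. Gramd1a, which encodes a sterol transfer protein between the plasma membrane and the endoplasmic reticulum, rose at 4 h by 2.94 (SE 0.56, limma adjusted p = 0.00052) and was lower at 18 h than at 4 h by 2.91 (SE 0.66, limma adjusted p = 0.0058). It was 133, 15.4, 23.2, 31.3, 54.5 and 37.1 RPKM at 4 h, and naïve replicate 1, at 36.9 RPKM, was the only naïve retina inside that range. Both Gramd1a calls were lost in 1 of 13 alternative settings, experiment 1 alone (limma adjusted p = 0.056 and 0.23). Msr1 and Cd36 were higher at 18 h than at 4 h by 4.08 (SE 0.84, limma adjusted p = 0.0021) and 3.45 (SE 0.80, limma adjusted p = 0.0072). For each of them this call was lost in 2 of 13 alternative settings. Npc2, which moves cholesterol out of lysosomes and was the most abundant gene of this list, differed by 0.51 at 18 h (SE 0.30, limma adjusted p = 0.40).

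No enzyme of sterol synthesis passed the thresholds at any time, but at 18 h 16 of 17 had a positive difference. The limma test gave 0 calls among 17 genes at each time, where 8.08%, 4.69% and 0.0076% of all genes passed in either direction. In order of time, 0, 4 and 3 of the 17 had an unadjusted p under 0.05. At 18 h the median of the 17 genes was 0.64, beside -0.08 for all genes, of which 45.1% were higher, and it was 0.47 after rescaling to equal sums. The count at 18 h was 16 of 17 within experiment 1, 15 of 17 within experiment 2 and 16 of 17 without the 4 retinas with few detected genes, with medians of 1.00, 0.32 and 0.90. The experiment 2 values rest on 1 retina at 18 h. At 4 h 13 of 17 were higher (median 0.28), beside 43.3% of all genes, but only 6 of 17 within experiment 2 and 8 of 17 without those 4 retinas. At 2 weeks 13 of 17 were higher (median 0.38), beside 57.4% of all genes, with 12 in experiment 1 and 10 in experiment 2.

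The 4 genes with an unadjusted p under 0.05 at 18 h, named after their values were seen, were Fdps with 2.25 (SE 0.72, limma adjusted p = 0.068), Acat2 with 1.50 (SE 0.66, limma adjusted p = 0.22), Cyp51 with 1.45 (SE 0.52, limma adjusted p = 0.11) and Msmo1 with 1.44 (SE 0.52, limma adjusted p = 0.12). Msmo1, a sterol demethylation enzyme and the most abundant of the list, was 45.1 ± 8.29 RPKM (SD, n = 5) at 18 h, where 3 of 5 retinas lay above every naïve retina, and 21.1 ± 11.1 RPKM (SD, n = 10) in naïve retinas. Ebp, a sterol isomerase, differed by 0.83 at 18 h (SE 0.88, limma adjusted p = 0.69). Lbr was the 1 enzyme with a negative difference, -0.36 (SE 0.50, limma adjusted p = 0.78), and Hmgcs1, at -0.57, stood on the same side. The summed level of the list had a median of 172 RPKM in naïve retinas (range 42.5 to 251) and 282 RPKM at 18 h (range 132 to 305). It was 146 RPKM at 4 h and 205 RPKM after 2 weeks.

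**Figure D4:**
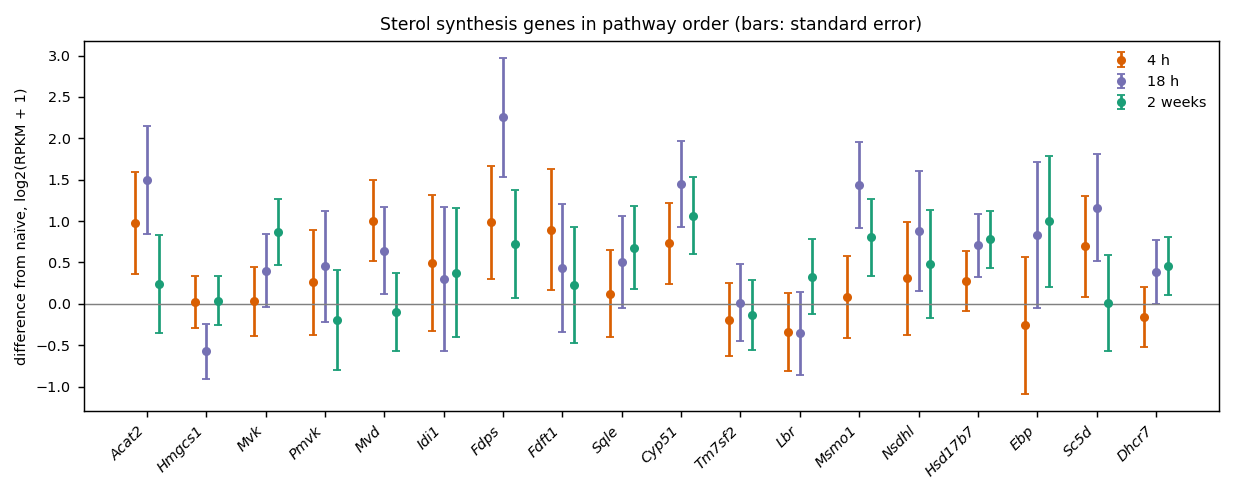
Difference from naïve retinas in log2(RPKM + 1) for 16 of the 17 sterol synthesis genes in the fit, with Hmgcs1 and Sqle added, in pathway order, at each of the 3 times, with bars for the standard error. At 18 h Fdps reaches 2.25, while Hmgcs1 and Lbr lie below 0.

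Of the 8 SREBP processing genes and targets that passed the filter, none passed the thresholds at any time in the main fit. Of all genes, 8.08%, 4.69% and 0.0076% did, in order of time. An unadjusted p under 0.05 was seen for 2, 2 and 1 of the 8. Tmem97, a sterol-regulated membrane protein gene, differed by 2.29 at 18 h (SE 0.76, limma adjusted p = 0.078), and Insig2, which retains SREBPs in the endoplasmic reticulum, by -0.77 at 4 h (SE 0.33, limma adjusted p = 0.16). With RPKM rescaled to equal sums and the genes of the original filter, Insig2 passed at 4 h (-1.04, limma adjusted p = 0.025).

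The genes whose pattern over the 28 retinas was most like that of each of the 8 genes, by Pearson correlation of log2(RPKM + 1), are given as a description, since all retinas share their groups, depth and experiment. For Ch25h they were Gbp2, an interferon-inducible GTPase (r = 0.94), the chemokine Ccl5 (r = 0.93) and the surface receptor Cd72 (r = 0.92). All 3 were above every naïve retina in all 6 retinas at 4 h and all 5 at 18 h. Nothing is read from this, because they were chosen for their likeness to Ch25h, which has the same separation. Gbp2 was higher at 4 h than at 18 h, with means of 95.6 and 31.6 RPKM, while Ccl5 was lower, with 1489 and 4316 RPKM. For Gpr183 they were Arsk (r = 0.85), Rdm1 (r = 0.83) and Tnfrsf13b (r = 0.81). Likeness was closer for Sqle (Gbf1, Plk5 and Rpa1, r = 0.91 for each) and Abcg1 (Map3k1, Gtf2a1 and Dpysl2, r from 0.87 to 0.89) than for Srebf2 (Vps37c, Brd2 and Dnajb2, r from 0.81 to 0.83), Nr1h3 (Chil1, Pdia6 and Gm27029, r from 0.72 to 0.75), Abca1 (Cstf3, Gm10721 and Ncoa7, r from 0.68 to 0.74) and Hmgcs1 (Tspyl1, Atf2 and Ints13, r from 0.66 to 0.72). The correlation between Ch25h and Gpr183 themselves was -0.29.

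The retinas had between 7510000 and 19700000 alignments and between 6552 and 11825 genes at an RPKM of at least 1. All 8 microglia markers were above 1 RPKM in the median retina of every group. Their summed level had a median of 8656 RPKM in naïve retinas, 4536 RPKM after 4 h, 2997 RPKM after 18 h and 9130 RPKM after 2 weeks. Of these 8 markers, 3 passed as lower at 4 h and 6 at 18 h, beside 4.39% and 1.85% of all genes. Summed T cell markers had a median of 2.54 RPKM at 4 h (range 0.0206 to 5.33) and 5.79 RPKM at 18 h (range 0.212 to 15.2), against 0.0810 (range 0 to 0.918) in naïve retinas, and Lck, the 1 of 5 that passed the filter, rose at 4 h. Summed B cell markers had a median of 12.3 RPKM at 4 h and 33.4 RPKM in naïve retinas. Cd79b, the 1 of 5 that passed the filter, fell at 4 h. It was also the only B cell marker with a median of at least 1 RPKM in any group, so the sum does not describe the list as a whole. At 18 h the 7 neutrophil markers measured, none of which passed the filter, reached 15.7 RPKM. Summed monocyte markers had a median of 7.06 RPKM in naïve retinas, 6.62 RPKM at 4 h and 8.26 RPKM at 18 h. Of these 6 markers 2 passed the filter, and neither passed the thresholds at 4 h or 18 h. All 7 rod photoreceptor markers passed the filter, and their summed level ranged from 216 to 4758 RPKM over the retinas, with medians of 2004 RPKM in naïve retinas and 1470 RPKM at 18 h. For Müller glia the corresponding medians were 181 and 106 RPKM. The part of these cell types in the results above was not tested, and fewer cells of a type cannot be told apart from less RNA per cell.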

How the data were processed

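Microglial mRNA of 28 single retinas was amplified with a SMART-Seq v4 kit and sequenced. The authors aligned the reads to mm10 with STAR 2.5.3a, quantified them on Ensembl transcripts of release 89 using the Partek software, whose estimation step may split reads among genes, and deposited RPKM values, so that no counting interval can be given. They also deposited 2 tables of their own comparisons (ANOVA p-values, ratios and fold changes), which were not used.

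Values were transformed to log2(RPKM + 1), so that differences of low genes are understated. Genes that reached 1 RPKM in 5 or more retinas (13164 of 40021) were fitted over all 28 retinas with limma 3.58.1 in R 4.3.3, with moderation by mean level and Benjamini-Hochberg adjustment. A gene passed when it differed 2-fold or more on that scale with an adjusted p no higher than 0.05. The test was checked on simulated data. Coordinates came from GENCODE M21, promoters from RefSeq, with plots made in Python 3.11.15.

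The 8 genes and all lists were chosen with earlier results of these data known. Genes named are the 8, each pathway gene that passed in a comparison, the 2 most abundant of each pathway list, the 3 genes most like each of the 8, and annotated genes that overlap them. Cyp7b1, Nr1h2, Fdps, Acat2, Cyp51, Lbr, Tbp, Lck and Cd79b fall outside this rule and were named after their values were seen. Alternatives covered the pseudocount, filter, covariates, a replicate block, the groups or experiment fitted, rescaling, an untransformed ANOVA, and each retina left out. One without 4 retinas that had under 7500 genes at an RPKM of at least 1 was chosen after seeing the data. Some genes are not reported here by name.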

Additional observations from a re-analysis of the deposited data

Results flagged for a closer look

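Over 32 sets of values, 8 genes in 4 groups each, 2 had a retina whose gap to its nearest neighbour was large for the range of the group (Dixon's ratio on log2(RPKM + 1)), and chance flags about 1 in 20. Gpr183 was 5.00 RPKM in 18 h replicate 4 (ratio 0.741, n = 5), which was 1 of the 4 retinas with few detected genes. Nr1h3 was 0.560 RPKM in naïve replicate 7 (ratio 0.684, n = 10), in a group where 8 of 10 retinas were listed at 0. No cause was tested for either.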

How the results depend on the processing

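The number of cholesterol pathway genes that passed was recomputed under 13 alternatives (8 for the difference between experiments) and with each of 28 retinas left out. At 4 h the count of 3 stayed within 1.5 times in 10 alternatives and was 5 after rescaling to equal summed RPKM (6 with the genes of the original filter), 1 in experiment 1 alone and 6 in experiment 2 alone. At 18 h the count of 6 stayed so in 12, though with 5 higher and 1 lower on untransformed RPKM and 5 higher and 4 lower with experiment as a covariate, and was 1 in experiment 2 alone, where 1 retina at 18 h is assumed to vary like the other groups. For 18 h against 4 h the count of 4 became 7 with only both groups fitted, 7 on untransformed RPKM, 7 without the 4 retinas with few detected genes and 0 in experiment 1 alone. The counts of 0 at 2 weeks and between experiments did not move. With 1 retina left out the counts were 2 to 4 at 4 h, 4 to 7 at 18 h and 3 to 5 for 18 h against 4 h. The cause of these shifts was not tested. With a replicate block the counts were 4, 8, 0 and 4. Deviations of same-numbered retinas had a median r of 0.035 over 34 pairs (range -0.33 to 0.70, 15 of them over 0.1), beside 0.0054 for other pairs. All of these pairs joined retinas of different groups, and retinas of the same group were not compared. The paper describes choosing mice for injection or as controls. Neither this median nor the replicate block can therefore show whether retinas of the same group share a mouse. The numbers were not taken as pairs. The Ch25h increases at 4 h and 18 h kept their direction in all 13 alternatives, from 4.34 to 8.61 and from 5.01 to 9.31, and in all 28 fits that left out a retina. Of single genes, Mertk (adjusted p = 0.28), Mylip (0.79) and Msr1 (0.14) did not pass at 18 h in experiment 2 alone. Nr1h3, Srebf2 and the naïve values of Ch25h were low, and Sqle was near 0 in some retinas. The part of read depth in this was not tested.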
